A study of Rattus norvegicus with 6 samples.

Results

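The microRNAs (miRNAs) miR-22, miR-26a and miR-26b were followed in heart RNA of rats with and without chronic colitis. Every probe named for one of these stems was taken, whatever its signal, which gave 6 of the 761 rat miRNA probes on the array, namely rno-miR-22-3p, rno-miR-22-5p, rno-miR-26a-5p, rno-miR-26a-3p, rno-miR-26b-5p and rno-miR-26b-3p, written below without the prefix for the rat. The hearts came from adult Sprague Dawley rats, males according to the study's methods. The 3 DSS rats had drunk 3% dextran sodium sulfate (DSS), an agent that injures the colon lining, in 4 cycles of 5 days with 9 days of normal water in each cycle, over 8 weeks. The 3 control rats were labelled as controls, with no agent named. Total RNA of each heart was hybridized to 1 array, and the labels number the animals 9, 10 and 11 for control and 13, 14 and 16 for DSS. Which part of the heart was taken is not given in the sources used here.

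A miRNA is cut from a hairpin precursor. One arm, named 5p or 3p, or at times both, is loaded into an Argonaute protein and guides it to messenger RNAs that pair with its seed, bases 2 to 8. miR-22 is made in cardiac and skeletal muscle and is known from mouse models as a miRNA of cardiomyocyte hypertrophy, with HDAC4 and SIRT1 among its known targets. miR-26a and miR-26b share one seed and lie in introns of genes for small phosphatases that act on RNA polymerase II. They are known as brakes on cell growth, through targets such as EZH2, and miR-26a is also known to restrain vessel growth through SMAD1.

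The mature sequences are shown because the comparisons turn on how the arms of one hairpin, and miR-26a and miR-26b with their shared seed, differ from each other. All 6 target sequences on the array were identical to the RefSeq entries (build GRCr8), and they are printed 5′ to 3′ with the seed in capitals.
miR-22-3p: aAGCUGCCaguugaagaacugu
miR-22-5p: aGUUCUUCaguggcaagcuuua
miR-26a-5p: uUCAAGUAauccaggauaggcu
miR-26b-5p: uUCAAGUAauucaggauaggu
miR-26a-3p: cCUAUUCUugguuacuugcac
miR-26b-3p: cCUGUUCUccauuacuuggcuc

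The seed UCAAGUA was held by miR-26a-5p and miR-26b-5p and by no other probe of the array. Compared without gaps from the 5′ end of miR-26a-5p, the change to miR-26b-5p was C11U and C21U over 21 positions, with 1 further base at the 3′ end of miR-26a-5p. With a gap allowed, the change was C11U and the loss of C21. The edit distance between them was thus 2, so that each probe may also bind part of the other miRNA. How much it did was not tested. The seed of miR-22-3p, AGCUGCC, was on no other probe, and the nearest other target sequence was at an edit distance of 9. The seed of miR-22-5p, GUUCUUC, was shared with miR-3568, which was detected on 1 control and 1 DSS array and was not tested.

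The precursors show which arm each probe reads, with both arms in capitals.
Mir22: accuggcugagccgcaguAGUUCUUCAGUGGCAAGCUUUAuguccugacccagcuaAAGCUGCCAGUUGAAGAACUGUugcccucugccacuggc
Mir26a: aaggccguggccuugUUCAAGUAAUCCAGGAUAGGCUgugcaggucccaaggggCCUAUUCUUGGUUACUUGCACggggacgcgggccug
Mir26b: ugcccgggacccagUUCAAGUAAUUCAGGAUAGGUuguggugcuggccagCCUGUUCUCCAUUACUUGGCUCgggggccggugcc

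In RefSeq's GRCr8 assembly Mir22 lies at chr10:60805331-60805425, Mir26a at chr8:127633048-127633137 and Mir26b at chr9:83425709-83425793, all on the plus strand. Mir26a lies within the gene Ctdspl and Mir26b within Ctdsp1, and no other listed gene overlaps Mir22. The arrays hold no probe for these host genes.

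Signals below are log2 values after background correction and normalization between arrays, unless another scale is named. Detection on an array required 2 or more of the 4 spots of a probe to exceed background by 3 times the SD of empty spots, with a pixel CV below 0.5. The arrays detected between 223 and 365 miRNAs. DSS rat 13 stood nearest to the controls, with a Pearson's r over all miRNA probes of 0.964 with control rat 11, 0.961 with DSS rat 14 and 0.976 with DSS rat 16. The 11 spike-in probes read lower on the DSS arrays by a mean of -0.95 and the 6 probes for 5S rRNA by -0.42 on the log2 scale before normalization, so that a change depends on the scale that is set between arrays. Of the heart muscle markers, miR-1-3p, miR-133a-3p, miR-133b-3p and miR-499-5p were detected on all 6 arrays, miR-208a-3p on 1 and miR-208b-3p on 0. Thus 4 of the 6 markers fit the labelled tissue throughout and the miR-208 markers did not. Both arms of miR-22 and the 5p arms of miR-26a and miR-26b were detected on all 6 arrays, and in the authors' processed values, which are linear, each of these 4 lay above 500 on every array, the study's limit for high signal. They were among the 282 miRNAs detected on 3 or more arrays, all of which were tested.

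With the normalization used here, miR-22-3p was lower and miR-26b-5p higher in DSS hearts, and neither miR-26a-5p nor miR-22-5p passed the test. Among 27 alternatives, miR-22-3p was called in 22 and miR-26b-5p in 13. Of the 4 tested, 2 were called at an adjusted p under 0.05, a share close to the 49.3% called among all 282 miRNAs tested (28.4% lower and 20.9% higher in DSS). Control and DSS values did not overlap for the same 2 of 4, against 66.3% of all miRNAs tested (34.8% lower and 31.6% higher in DSS). The median log2 fold change was -0.15 over the 4 and -0.06 over all 282. In bulk heart RNA, fewer cells of a type and less of a miRNA in each cell cannot be told apart.

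**Figure D1:**
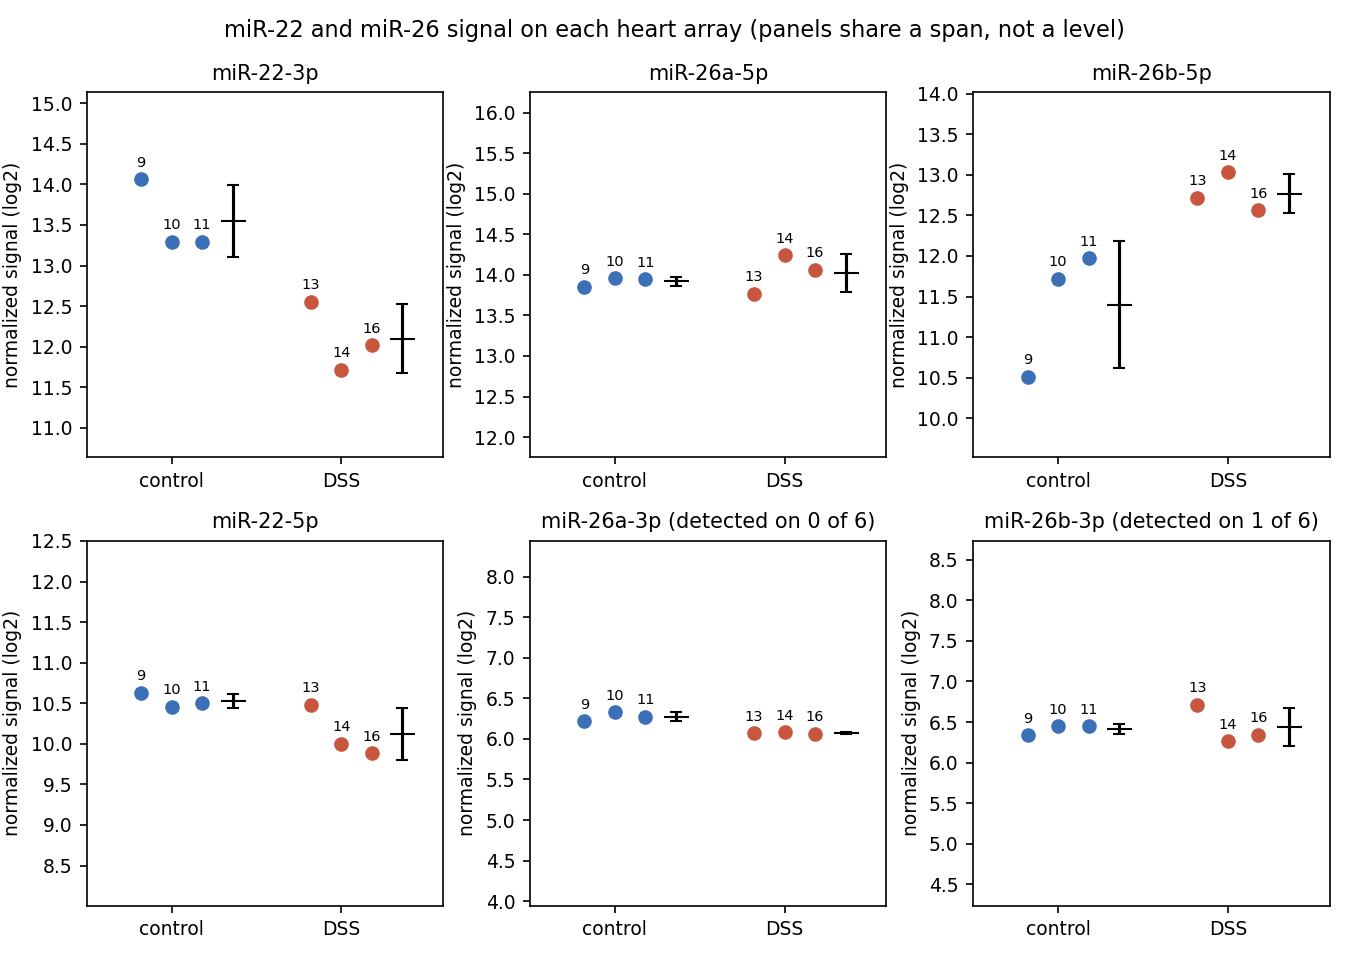
Normalized log2 signal (y axis) of the 6 probes on each array, with control rats in blue, DSS rats in red and the animal number above each point, and bars for the group mean ± SD (n = 3). The DSS values of miR-22-3p lie below and those of miR-26b-5p above all control values, while those of miR-26a-5p lie between 13.77 and 14.24 around control values of 13.85 to 13.96.

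The log2 signal of miR-22-3p was 14.06, 13.30 and 13.29 in control rats 9, 10 and 11 and 12.56, 11.71 and 12.02 in DSS rats 13, 14 and 16. All DSS hearts were below all control hearts, with control rat 9 highest and DSS rat 13 nearest to the controls. The mean went from 13.55 ± 0.44 to 12.10 ± 0.43 (SD, n = 3 each), a log2 fold change of -1.45 (standard error 0.31, 95% interval from -2.20 to -0.71, adjusted p = 0.0161), which is 2.74-fold lower in DSS hearts. Among the 282 miRNAs tested, 25 had a lower log2 fold change. The authors' processed intensities were 15002, 12635 and 11198 in control and 7540, 3097 and 4256 in DSS hearts, 2.61-fold lower in the mean. The separation was already present before normalization, where the mean of 4 spots in the scanner files was 17371, 13065 and 13812 for control rats and 9341, 2261 and 3352 for DSS rats. Without DSS rat 14 the log2 fold change was -0.91 (adjusted p = 0.0608), and without DSS rat 16 it was -1.26 (adjusted p = 0.0675). With the normalization of all 6 arrays kept, the call was lost without DSS rat 16 (adjusted p = 0.0614) and not without DSS rat 14.

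The other arm of the same hairpin, miR-22-5p, had a log2 signal of 10.63, 10.45 and 10.50 in control and 10.48, 10.00 and 9.88 in DSS hearts. DSS rat 13 lay among the controls and the other DSS rats below them. The log2 fold change was -0.41 (standard error 0.21, 95% interval from -0.91 to 0.10, adjusted p = 0.142), so that a fall of up to 1.88-fold lies within its interval. Without DSS rat 13, and with the normalization kept, it was -0.59 (adjusted p = 0.0377).

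For miR-26a-5p the log2 signal was 13.85, 13.96 and 13.95 in control and 13.77, 14.24 and 14.06 in DSS hearts. The DSS values lay on both sides of the control values and the groups overlapped. The log2 fold change was 0.10 (standard error 0.19, 95% interval from -0.34 to 0.55, adjusted p = 0.664), a smaller size than that of all but 24 of the miRNAs tested. In the authors' processed values the control hearts were at 11615, 19750 and 17993 and the DSS hearts at 21014, 19315 and 17661. The sign of this small change is not settled, since it was negative under 5 of the alternatives that used all arrays, among them -0.78 with each array scaled to its 75th percentile over all probes (adjusted p = 0.0232), 1 case in which it was called. Scaled to the spike-in probes it was 0.54 (adjusted p = 0.166). Without control rat 9, with the arrays normalized again, it was -0.68 (adjusted p = 0.184).

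Its seed partner miR-26b-5p had a log2 signal of 10.51, 11.72 and 11.97 in control and 12.72, 13.03 and 12.56 in DSS hearts. All DSS hearts were above all control hearts, and control rat 9 stood well below the other controls. The mean went from 11.40 ± 0.78 to 12.77 ± 0.24 (SD, n = 3 each), a log2 fold change of 1.37 (standard error 0.39, 95% interval from 0.43 to 2.31, adjusted p = 0.0280), or 2.58-fold higher, and 33 of the miRNAs tested had a higher one. The authors' processed intensities were 1440, 3776 and 4349 in control and 8342, 6635 and 6032 in DSS hearts, 2.20-fold higher in the mean. Before normalization the groups overlapped, with scanner readings of 1419, 4049 and 5360 for control rats and 10519, 5724 and 5036 for DSS rats. Without control rat 9 and with the arrays normalized again, the log2 fold change was 0.48 (adjusted p = 0.187), and with the normalization kept the call stood without control rat 9 and was lost without DSS rat 13 (adjusted p = 0.0539), DSS rat 14 (0.0844) or DSS rat 16 (0.0754).

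The 3p arms of miR-26a and miR-26b were not detected in most hearts. miR-26a-3p was detected on 0 of 6 arrays, with authors' processed values from 8 to 12 in control and from 1 to 2 in DSS hearts. miR-26b-3p was detected on DSS rat 13 only, where its log2 signal was 6.71, against 6.26 and 6.34 on the other DSS arrays and 6.34, 6.45 and 6.45 on the control arrays. Neither passed the filter on detection, and no fold is given, since miR-26a-3p was below detection in both groups and the mean of miR-26b-3p in DSS hearts, 6.44, lay under the 6.66 that a control array could detect. With no filter, limma called neither (adjusted p = 0.0606 for miR-26a-3p and 0.914 for miR-26b-3p), on values that are mostly below detection. The limits of 2 SD, of 5 SD and of 3 SD above the median empty spot left these detection calls as they were.

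**Figure D2:**
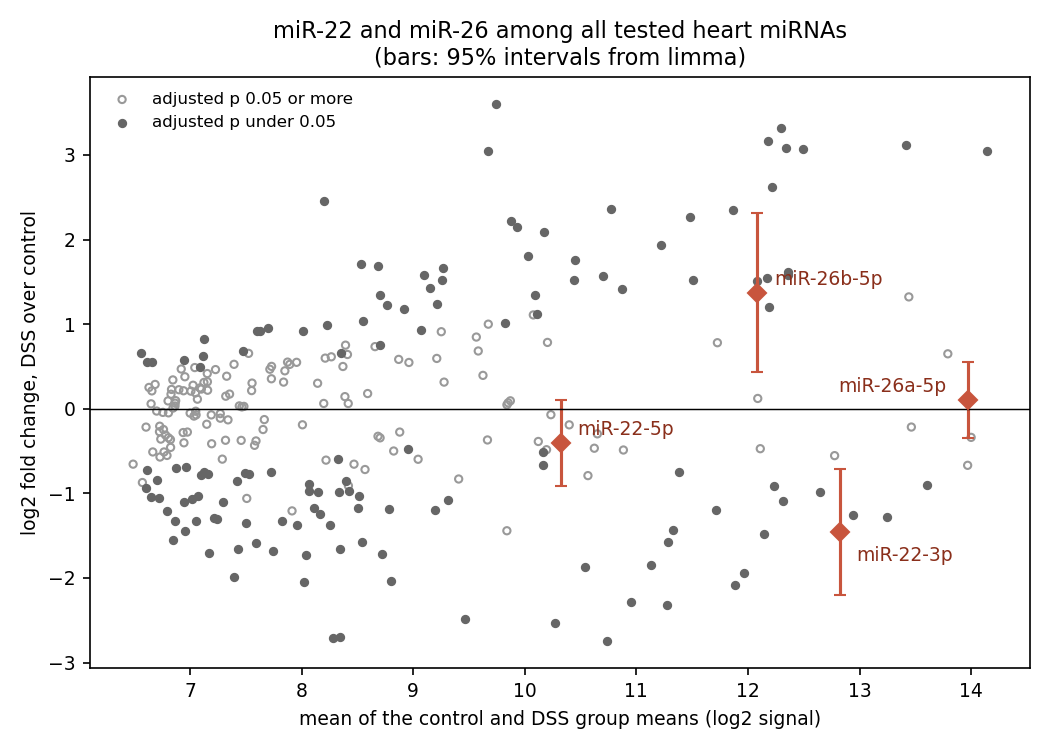
Log2 fold change (y axis, DSS over control) against the mean log2 signal of both groups (x axis) for the 282 miRNAs tested, filled where the adjusted p is under 0.05, with miR-22 and miR-26 as red diamonds and their 95% intervals as bars. miR-22-3p at -1.45 and miR-26b-5p at 1.37 lie among many called miRNAs, and miR-26a-5p and miR-22-5p have intervals that include 0.

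Differences between members on the same array do not depend on any single scaling factor of that array, and they were compared between the groups for 4 pairs. Such a difference shows that the members changed unequally, and not which of them changed. For miR-22-3p minus miR-22-5p it was 3.44, 2.84 and 2.79 in control and 2.07, 1.71 and 2.14 in DSS hearts, a change of -1.05, or 2.07-fold, in the 3p arm against the 5p arm of its hairpin. For miR-26a-5p minus miR-26b-5p it was 3.34, 2.24 and 1.98 in control and 1.05, 1.21 and 1.50 in DSS hearts, a change of -1.27. This difference between the partners with one seed was smaller on every DSS array than on any control array.

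For miR-22-3p minus miR-26a-5p the mean went from -0.37 ± 0.50 to -1.93 ± 0.67, and for miR-22-3p minus miR-26b-5p from 2.15 ± 1.22 to -0.67 ± 0.59 (SD, n = 3 each), changes of -1.56 and -2.82. Probes differ in brightness, so that the sign of such a difference does not say which miRNA was more abundant. The 4 pairs did not overlap between control and DSS hearts. That was also the case for 63.3% of all pairs of tested miRNAs. Each pair had p = 0.1 in a 2-sided exact permutation test over the 20 arrangements of 6 arrays (adjusted p = 0.1 over the 4 pairs), the smallest p that 3 arrays against 3 allow, so that no pair could pass a threshold of 0.05. Without normalization and with scaling by 1 factor per array these changes were -1.33 for the arms of miR-22, -1.50 for miR-26a-5p minus miR-26b-5p, and -1.42 and -2.92 for miR-22-3p minus miR-26a-5p and minus miR-26b-5p. Over 22 alternatives they were between -1.33 and -0.74 for the arms of miR-22, and between -1.55 and -0.86 for miR-26a-5p minus miR-26b-5p. For miR-22-3p they were between -1.92 and -1.07 against miR-26a-5p, and between -3.26 and -2.12 against miR-26b-5p.

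**Figure D3:**
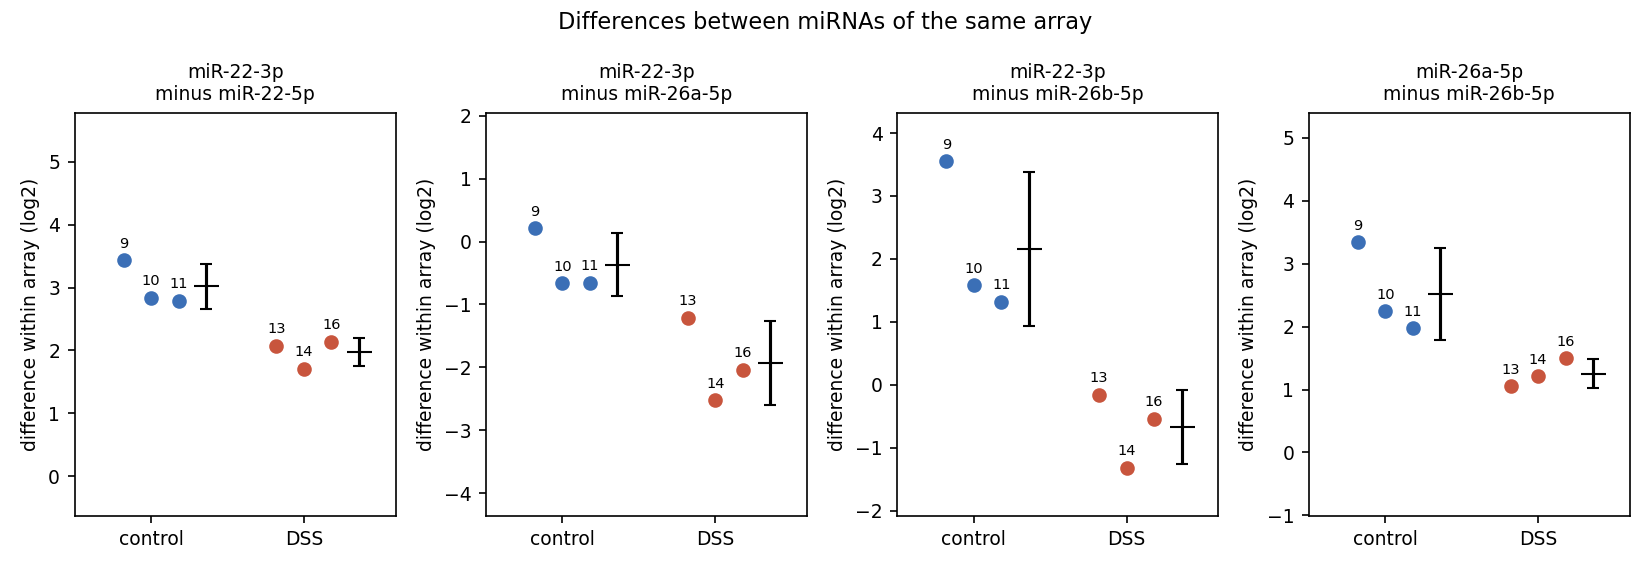
Difference in log2 signal between the named miRNAs on the same array (y axis) for control rats (blue) and DSS rats (red), with animal numbers and the group mean ± SD (n = 3). In each of the 4 panels the 3 DSS values lie below the 3 control values, with control rat 9 highest.

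Among 27 alternatives, the log2 fold change of miR-22-3p was below 0 in all 27, between -2.20 and -0.88, and was called in 22. That of miR-26b-5p was above 0 in all 27, between 0.48 and 2.04, and was called in 13. The median of all tested miRNAs moved with the scale, to 1.31 with spike-in scaling, 0.78 with 5S rRNA scaling and 0.36 without normalization. Relative to that median, miR-22-3p was between -2.18 and -0.92, miR-22-5p between -0.86 and -0.15, miR-26a-5p between -0.76 and 0.47, and miR-26b-5p between 0.63 and 1.69. The methods' t-test, run on the values normalized here, called miR-22-3p and miR-26b-5p without adjustment and neither after it (adjusted p = 0.0608 and 0.0861). The study's own lists of high-signal miRNAs changed at p under 0.05 name neither of them.

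**Figure D4:**
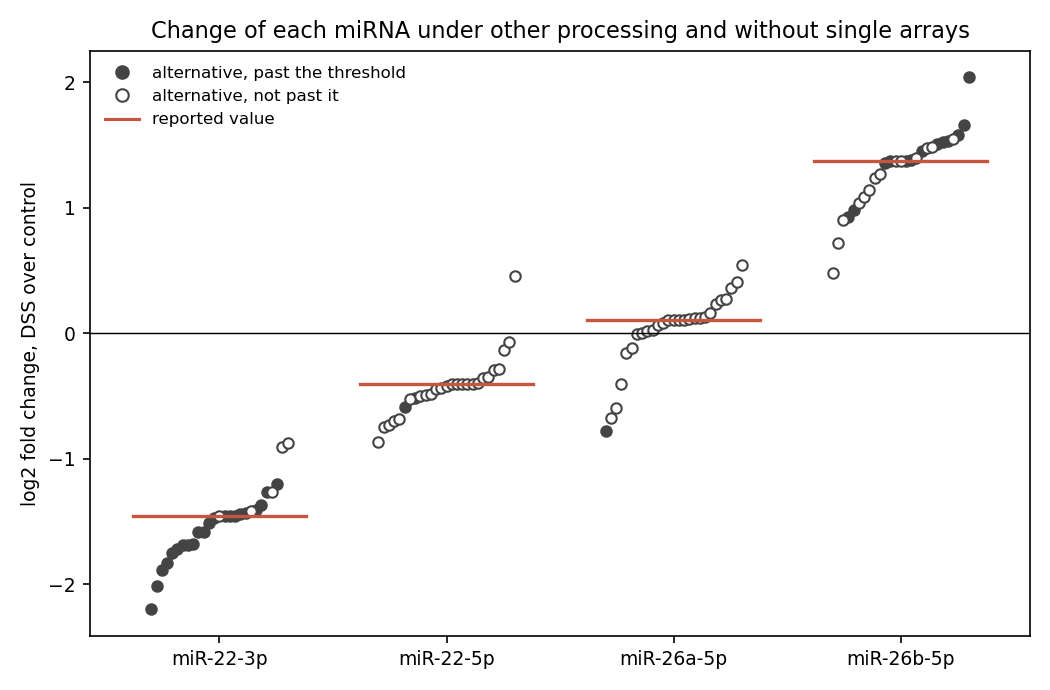
Log2 fold change (y axis, DSS over control) of the 4 tested miRNAs under each of 27 alternatives, sorted by value within each miRNA, filled where the adjusted p is under 0.05, with the reported value as a red line. All points of miR-22-3p lie below 0 and all of miR-26b-5p above 0, while those of miR-26a-5p lie on both sides and 1 of miR-22-5p, at 0.46 with spike-in scaling, is above 0.

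The miRNAs whose profile over the 6 arrays was most like that of miR-22-3p, by the root mean square difference of log2 values centred on their own mean, were miR-199a-5p at 0.09, miR-322-3p at 0.13 and miR-24-1-5p at 0.14. Their log2 fold changes were -1.58, -1.38 and -1.29. Those most like miR-26a-5p were miR-23a-5p at 0.10, miR-3557-3p at 0.10 and miR-185-5p at 0.11, with log2 fold changes of 0.25, 0.09 and 0.05, none of them called. Likeness was taken over the same 6 arrays, so that similar fold changes follow from the choice and are no separate result. The log2 signal was between 6.43 and 6.99 for miR-23a-5p and between 6.73 and 6.91 for miR-3557-3p. Both lay near the 6.66 that a control array could detect.

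miR-22 and miR-26 were set beside 30 other miRNAs known from cardiac hypertrophy, ischemia or fibrosis. All 30 were on the array and 26 were tested, of which 14 were called lower in DSS hearts, 3 were called higher and 9 were not called. The called miRNAs are 65.4% of the 26 tested, against 49.3% of all miRNAs tested, with a median log2 fold change of -0.82 against -0.06. The list was chosen with earlier results of these data known, so that this share is a description and no test. With spike-in scaling 8 of the list were called, and with 5S rRNA scaling 9. With arrays normalized again, the number called was 14 without control rat 9 and 8 without control rat 11. It was 3 without DSS rat 14 and 0 without DSS rat 16, where limma still gave 12 at an unadjusted p under 0.05. With the normalization of all 6 arrays kept, these numbers were 9, 9, 5 and 0, in the same order. Among the muscle miRNAs, miR-1-3p rose by 3.11 on the log2 scale (adjusted p = 0.0151) and miR-499-5p, which is encoded in a myosin gene, fell by 2.09 (adjusted p = 0.0213). miR-133a-3p was at -0.67 (adjusted p = 0.0527), and miR-208a-3p was not tested. Of miRNAs tied to fibrosis, miR-29a-3p, which targets collagen messages, fell by 1.26 (adjusted p = 0.0213), and miR-21-5p was at 0.78 with overlapping groups (adjusted p = 0.427). miR-195-5p, of the miR-15 family that restrains the cell cycle, fell by 1.44 (adjusted p = 0.0170), and miR-199a-5p fell by 1.58 (adjusted p = 0.0151). The log2 fold change of miR-22-3p, -1.45, lay beside those of miR-195-5p and miR-199a-5p, with no test of the difference.

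Some markers of other cells also differed between the groups in which miR-22-3p and miR-26b-5p differed, and markers of 1 list did not always move together. The 6 heart muscle markers summed to a linear signal between 41256 and 64517 in control and between 38659 and 94532 in DSS hearts, with 1 called higher and 1 lower. The summed linear signal of the 5 leukocyte markers was between 2071 and 4700 in control and between 8360 and 9818 in DSS hearts. Most of this sum was miR-150-5p on every array, so that it does not describe the 5 markers together. The lowest log2 signal of miR-150-5p was 10.65, in control rat 9. The highest of any other leukocyte marker was 8.65, for miR-223-3p in control rat 9. Of the leukocyte markers, miR-150-5p and miR-155-5p were higher and miR-223-3p lower, while miR-142-3p and miR-142-5p were detected on 1 array each. The 4 erythroid markers summed to between 2878 and 6192 in control and between 3833 and 5641 in DSS hearts, with miR-486 higher, miR-451-5p and miR-144-5p lower and miR-144-3p not detected. Of the called markers, miR-155-5p and miR-144-5p were each detected on 3 of the 6 arrays, the fewest that the filter allowed. The mean log2 signal of miR-155-5p was 6.24 in control hearts and that of miR-144-5p was 6.13 in DSS hearts. The mean of miR-155-5p lay under the 6.66 that a control array could detect, and that of miR-144-5p may lie below detection. The size of either change is thus uncertain. The 3 gut epithelial markers summed to between 642 and 924 in control and between 197 and 383 in DSS hearts, with miR-192-5p and miR-194-5p lower and miR-215 not called. The liver marker miR-122-5p was detected on 1 array and lay between 20.7 and 24.5 in control and between 31.7 and 42.7 in DSS hearts. The 2 brain markers summed to between 116 and 269 in control and between 38.4 and 206 in DSS hearts, with miR-124-3p not detected and miR-9a-5p not called. The part of such cells in the changes of miR-22 and miR-26 was not tested.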

How the data were processed

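Heart miRNA was measured on 6 one-color arrays, 1 per rat (3 control, 3 DSS). The deposited scanner files give the intensity of each of 3968 spots as its median brightness and pixel SD, linear and with background included. The authors' table of processed intensities holds 810 probes after background subtraction and a LOWESS filter, in whole numbers; how spots were combined is not given in the sources used here. From the scanner files, background was corrected with normexp (offset 50) over all spots, the log2 values of 4 spots were averaged, and arrays were normalized by cyclic LOWESS (span 0.7, 3 iterations) over 761 miRNA probes. For detection, background was taken from the dimmest 25% of miRNA spots, as their median. Testing covered 282 miRNAs, those detected on 3 or more arrays, with limma 3.58.1 (lmFit and eBayes) in R 4.3.3, adjusted by Benjamini-Hochberg over all 282, with a threshold of 0.05. All adjusted p-values are limma's unless another test is named. The brightest spot lay between 48608 and 59496, and no pair of arrays shared more than 2 of 3968 spot values. Figures used Python 3.11.15 with matplotlib 3.10.9. The code was tested on simulated data. Alternatives covered background, normalization, the authors' values, the filter, spot summary, test and each array left out. The miRNAs, lists and tests were chosen with earlier results of these data known. The text names every probe of the 3 stems, any probe sharing a seed with them, the 3 most like miR-22-3p and miR-26a-5p, and 8 miRNAs of the heart list by role. The number of arrays limits the precision.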

Additional observations from a re-analysis of the deposited data

How the results depend on the processing

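No paired analysis was possible because no animal number occurs in both groups. A block for slide or scan was not fitted, since neither is named in the files. The direction of miR-22-3p, of miR-26b-5p and of the 4 within-array differences held under every alternative run. For the 2 miRNAs it was fixed in advance where only the filter or the test changed. The within-array differences are the same under every scaling by 1 factor per array. Of miR-22 and miR-26, 1 was called instead of 2 with plain background subtraction, no normalization, quantile normalization, 75th percentile scaling over detected miRNAs, spike-in scaling, the authors' processed values and no filter, and 0 with the methods' t-test after adjustment (2 before it). The number was 0 to 2 with 1 array left out. It was 0 without DSS replicate 14 or 16 when arrays were normalized again. With the normalization kept it was 1 without DSS replicate 14 and 0 without DSS replicate 16. In each of these cases limma gave 2 at an unadjusted p under 0.05. miR-26b-5p was not called at 1.14 (plain subtraction), 1.09 (no normalization), 1.04 (quantile), 0.90 and 0.72 (75th percentile of detected and of all probes), 1.27 (the authors' values), and 1.37 (no filter, and the adjusted t-test), with 0.48 to 1.66 over arrays left out and normalized again or not (1.40, 1.24 and 1.47 without DSS replicates 13, 14 and 16, normalization kept, and 0.48 to 1.58 with arrays normalized again). miR-22-3p was not called at -0.88 (spike-in scaling) and -1.45 (adjusted t-test), with -1.75 to -0.91 over arrays left out (-1.42 without DSS replicate 16, normalization kept). miR-26a-5p was -0.12, -0.41, -0.16, -0.59 and -0.78 in those first 5 settings and -0.68 to 0.41 over arrays left out (-0.0055 without DSS replicate 14, normalization kept). miR-22-5p was 0.46 with spike-in scaling, was called at -0.52 with array weights, whose estimation stopped before it converged, and was -0.59 to -0.14 over arrays left out. All miRNAs called were 139, 74 with no filter, 0 with the adjusted t-test (155 before it), and 0 to 147 over arrays left out (84 and 69 without control replicate 9 and DSS replicate 14, normalization kept), where limma without DSS replicate 16 gave 131 unadjusted. Higher and lower calls were 59 and 80, 81 and 38 without normalization, 80 and 80 with quantile normalization, 168 and 10 with spike-in and 129 and 14 with 5S rRNA scaling. Heart-list calls were 17, 8 with spike-in and 9 with 5S rRNA scaling, 4 with no filter, 0 with the adjusted t-test (17 before it), and 0 to 18 over arrays left out. Leaving out an array while keeping the normalization of all 6 was chosen after seeing the data. The causes of these differences were not tested.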
